A study of Triticum aestivum with 18 samples.

Results

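Grain of wheat plants whose spikes had been shaded and whose leaves had all been removed was compared with grain of normally growing plants, at the grain filling stage. Poly(A) RNA of grains of Triticum aestivum was sequenced, and the deposited values are FPKM, that is fragments scaled by transcript length and by the mapped fragments of the library, with no counts beside them, so the depth of a library is unknown. The 2 groups of 3 libraries make up 6 of the 18 libraries of the series, and 3 further grain libraries came from plants from which 0.5 of the spike had been taken off, called partial removal here. The labels give no cultivar, no number of plants per library and no length of treatment. Nothing in them ties the libraries of one group to different plants, and the p-values reflect how far these samples scatter, which may be technical. Shade and loss of leaves were applied together, so their effects cannot be told apart. Of 115478 loci in the table, 97029 carried a gene name, and 32999 of these were tested, having reached an FPKM of 1 or more in 3 or more of the 6 libraries. A description was given for 6319 of the loci tested, and only these could be named for what they encode.

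During grain filling the starchy endosperm turns sucrose delivered by the phloem into starch and amino acids into gliadins and glutenins, the gluten proteins. Leaves supply most of this sucrose, with a contribution from green parts of the spike. Sucrose is cleaved by sucrose synthase, ADP-glucose pyrophosphorylase makes the glucosyl donor, and starch synthases, branching enzymes and debranching isoamylases build the granule. Bread wheat carries A, B and D genomes, so most genes have 3 near-identical copies, and reads of one copy can be counted on another. The value of a single copy is therefore less certain than the direction shared by its copies.

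Shaded library 2 stood apart from the other 5. Loci without a gene name took 89.9% of its FPKM sum, against 26.6% and 37.3% in the other shaded libraries and 25.2% to 55.4% in the control libraries. It had 10296 named loci with an FPKM of at least 1, against 29958 to 35043 in the other 5, while its depth relative to control library 1, estimated from the steps of low values, was 1.06. Levels below are FPKM divided by a factor per library computed on the tested loci (0.260 for shaded library 2 and 1.04 to 1.43 for the others), called scaled FPKM. The markers of the labelled tissue were present in every library. Gliadins and glutenins (17 loci) took 0.218% to 0.602% of the FPKM of named loci in shaded and 1.45% to 2.49% in control grain, and at most 0.0164% in any leaf library. Granule-bound starch synthase (3 loci), also taken as a marker of starchy endosperm, was not lower in shaded grain. It was also present in leaf libraries, so its level says little about the amount of starchy endosperm. It took 0.00682% to 0.00897% in shaded and 0.00588% to 0.00688% in control grain, and at most 0.00411% in any leaf library. Chlorophyll a-b binding proteins, which mark green tissue, reached at most 0.00410% in the 6 libraries over 64 loci, of which 26 were at 0 in all 6. Embryo and aleurone markers (13 loci) took 0.208% to 0.253% in shaded and 0.212% to 0.415% in control grain, and markers of dividing cells (253 loci) took 0.123% to 0.173% and 0.157% to 0.223%. The part of such shifts in tissue make-up in the results below was not tested, and in bulk grain fewer cells of a type and less RNA per cell cannot be told apart.

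Most changes were falls. Of the 32999 loci, 366 (1.11%) differed between shaded and control grain at an adjusted p under 0.05 (limma on log2(scaled FPKM + 1), two-sided, Benjamini-Hochberg), 334 of them lower (1.01%) and 32 higher (0.0970%). The fall was at least 2-fold at 237 loci and at least 4-fold at 73, and the rise was at least 2-fold at 11 loci and at least 4-fold at 3. The median log2 difference was -1.26 over the loci called lower and 0.79 over those called higher, against 0.00195 over all loci tested. At every one of the 366 loci the values of the 2 groups did not overlap. At an unadjusted p under 0.05, 3051 loci were lower (9.25%) and 2238 higher (6.78%). Groups that do not overlap were far more common than calls, with 3867 loci lower (11.7%) and 3725 higher (11.3%), so falls outnumbered rises most among the calls.

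**Figure D1:**
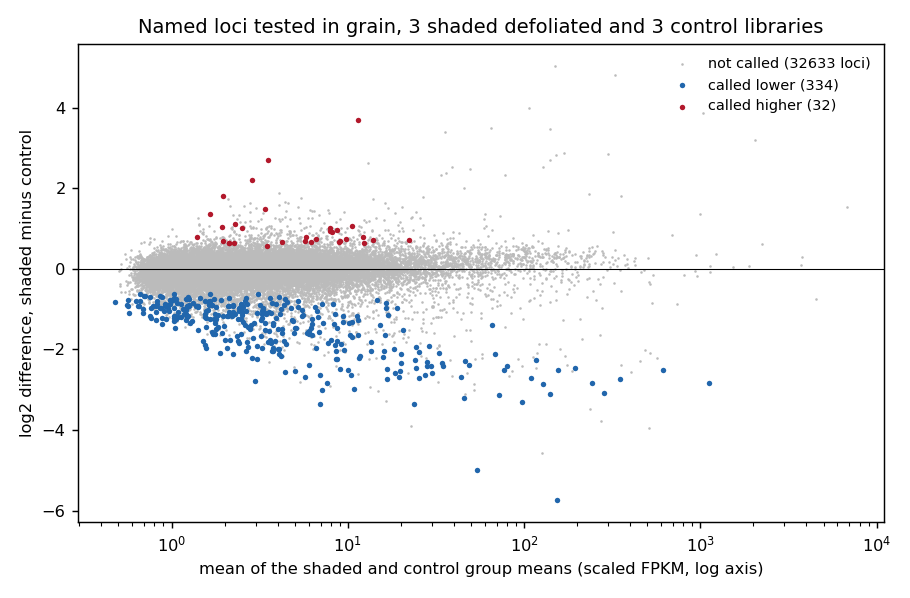
Log2 difference of the 32999 named loci tested (shaded minus control grain, y axis) against the mean of both group means in scaled FPKM (x axis, log scale). The 334 loci called lower (blue) reach -5.74 and extend to the highest levels among the calls, while the 32 called higher (red) reach 3.70 and lie at low to moderate levels.

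The number of calls depended on single libraries. It was 17 without shaded library 3, 34 without shaded library 2, 40 without control library 3, 60 without control library 1, 166 without control library 2 and 199 without shaded library 1. Without shaded library 2, none of the 34 calls was a rise, and 21 of them were among the 366. Since the groups did not overlap at any of the 366 loci, leaving out 1 library could hardly change a direction. Of the 366 loci, 364 could be fitted without shaded library 2. All 364 kept their direction with an unadjusted p under 0.05, but they had been chosen by p on the same libraries. The median over the loci called lower was then -1.34. Among the 64 called loci with a description, 4 stayed called without this library (3 peroxidases and COBRA-like protein 6), and the adjusted p of the 64 lay between 0.0290 and 0.147. The limit of 1 on deposited FPKM also favoured falls, since the named loci of shaded library 2 had low FPKM: 399 tested loci passed it in all control and no shaded library, 97 of them called, and 4 passed it the other way round. Among the 64 called loci with a description, 16 reached the limit in control libraries only, so they had to differ to be tested; of those named below, these are isoamylase 1 on 7AS, alcohol dehydrogenase ADH2A, pectin acetylesterase MSTRG.26867, pectinesterase 11 and peroxidases MSTRG.60677 and MSTRG.63959. With the limit applied to scaled FPKM, chosen after seeing the data, 331 loci were called, 295 lower and 36 higher.

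**Figure D2:**
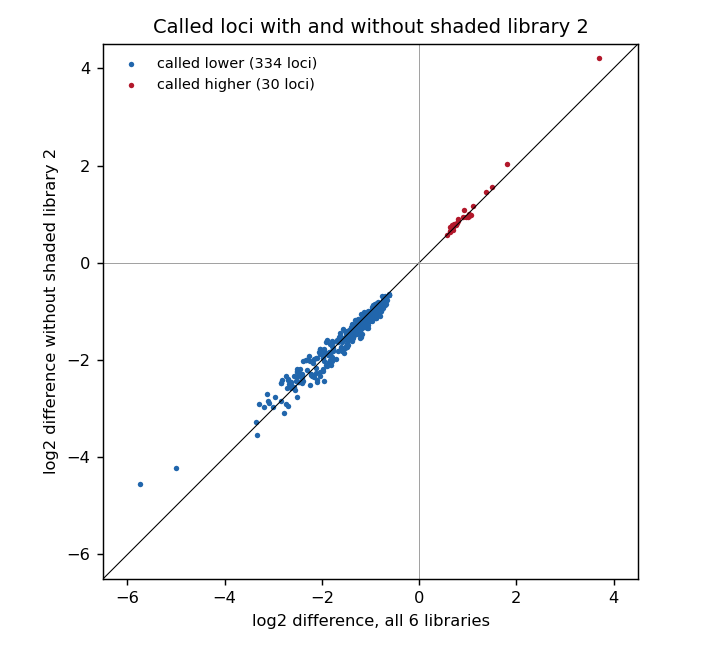
Log2 difference of the called loci with all 6 libraries (x axis) and without shaded library 2 (y axis), for the 364 loci that could be fitted both ways, with the line of equal values. All points lie in the quadrants of unchanged direction, which was nearly fixed in advance because the groups of these loci do not overlap. The median of the loci called lower is -1.26 on the x axis and -1.34 on the y axis.

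Storage proteins had the lowest median of the 40 gene lists. The list holds 18 loci of the table by their descriptions, of which 13 were tested. Of the 13, 6 were called lower, against 1.01% of all loci, and none higher. In 10 of the 13, against 11.7% of all loci, all shaded libraries were below every control library, and the median log2 difference was -2.38, or -1.96 without shaded library 2. Without that library none of the 13 was called lower, and without control library 1 or 3 none of the 12 gliadins and glutenins among them was. The low molecular weight glutenin subunit MSTRG.6164, on chromosome arm 1BS, one of the polymeric gluten proteins, had scaled FPKM of 50.5, 42.9 and 86.6 in shaded libraries 1 to 3 and 642, 341 and 543 in control libraries 1 to 3. Every shaded library was far below every control library, and the log2 difference was -3.08 ± 0.34 (adjusted p = 0.0214) by limma and -2.88 without shaded library 2. LMW-glutenin P3-6 (MSTRG.9570, 1DS) had 25.3, 8.75 and 17.9 in shaded libraries 1 to 3 and 250.4, 99.7 and 182 in control libraries 1 to 3, with a log2 difference of -3.30 ± 0.45 (adjusted p = 0.0316) and -2.91 without shaded library 2. The groups were again far apart, and shaded library 2 was the lowest of the 3. After partial removal the values of this locus were uneven, as given below.

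Among the monomeric gliadins, 3 loci were called. The alpha-gliadin MSTRG.77957 had 149, 49.2 and 86.2 in shaded libraries 1 to 3 and 659, 364 and 804 in control libraries 1 to 3, and its log2 difference was -2.73 ± 0.46 (adjusted p = 0.0498), or -2.34 without shaded library 2. Gamma-gliadin 5 (MSTRG.5991, 1BS) had 44.3, 40.02 and 111 against 322, 282 and 373 in the same order of libraries, a log2 difference of -2.45 ± 0.39 (adjusted p = 0.0441), or -2.19 without shaded library 2. The alpha/beta-gliadin MSTRG.61551 (6BS) had 26.1, 18.9 and 27.8 against 145, 67.2 and 126, a log2 difference of -2.12 ± 0.31 (adjusted p = 0.0368), or -1.96 without shaded library 2. In all 3 every shaded library was below every control library. The last call of the list was globulin 1 (MSTRG.4150, 1BL), a seed storage globulin, with 8.08, 4.45 and 7.38 in shaded libraries 1 to 3 and 34.3, 37.02 and 74.2 in control libraries 1 to 3, a log2 difference of -2.64 ± 0.33 (adjusted p = 0.0274), or -2.45 without shaded library 2.

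Not every storage protein locus was called. Gamma-gliadin (MSTRG.9913), gamma-gliadin 2 (MSTRG.10037), pseudo alpha/beta-gliadin (MSTRG.57296) and a glutenin subunit (MSTRG.9786) lay below every control library, with log2 differences of -2.38, -2.20, -1.82 and -3.77 and adjusted p of 0.0912, 0.0815, 0.0785 and 0.3804. The remaining 3, alpha-gliadins MSTRG.57491 and MSTRG.75869 and alpha/beta-gliadin MSTRG.58222, were uneven between libraries of one group. MSTRG.58222 had 377, 187 and 339.6 in shaded libraries 1 to 3 and 0, 1077 and 0 in control libraries 1 to 3, so that control libraries 1 and 3 were listed at 0 and control library 2 was the highest of all 6. With the FPKM left unscaled this locus was called higher, at 4.34 in log2 (adjusted p = 0.0183, limma), and none of the 12 tested gliadins and glutenins was called lower, while their median was -2.92. Such near-identical copies cannot be told apart with certainty, so the summed level is the safer value. Over the 12 tested gliadins and glutenins the sum of scaled FPKM, on the scale of all 9 grain libraries, was 1839, 753 and 1349.6 in shaded grain and 5564, 5088 and 4593 in control grain. The mean of the control sums was 3.87 times that of the shaded sums, or 3.19 times without shaded library 2.

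Loci annotated with nutrient reservoir activity, a GO term that covers gluten proteins and globulins, were divided. Of 49 tested, 13 were called lower (26.5%, against 1.01% of all loci) and none higher. Of the 49, 23 lay below every control library (46.9%, against 11.7%) and none above, and the median log2 difference was -0.42. Leaving out 1 library moved this median to -0.73 (shaded library 2), -0.63 (shaded 3), -0.23 (control 2) and -0.21 (control 3), with 1, 2, 9 and 0 loci called lower. It left 2 called lower without control library 1. With all 6 libraries, 8 of the 13 called loci carried no description. The highest of these, MSTRG.78237, had 431, 147 and 286 in shaded libraries 1 to 3 and 2559.8, 1265 and 2024 in control libraries 1 to 3 and a log2 difference of -2.83 ± 0.47 (adjusted p = 0.0491). It had the second highest mean of the term in control grain, while other abundant loci had overlapping groups. MSTRG.35759 (4AL) had 3943, 5248 and 2536 in shaded libraries 1 to 3 and 3016, 3099 and 4523 in control libraries 1 to 3, and MSTRG.54290 (5DL) had 2360.2, 1970.5 and 1513 in shaded libraries 1 to 3 and 1517, 2117 and 1912 in control libraries 1 to 3. Summed over the 49 loci, the mean of the control libraries was 1.26 times that of the shaded libraries.

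Among other small proteins of seeds, 2 loci were called lower. Of 11 tested thionins and defensins, 1 was called lower (9.09%, against 1.01% of all loci) and 5 lay below every control library (45.5%, against 11.7%). The median was -0.78, or -1.05 without shaded library 2, -1.29 without shaded library 3 and -1.31 without control library 3. Type-5 thionin (MSTRG.9138), of a family of small cysteine-rich antimicrobial peptides, had 35.2, 22.4 and 25.7 in shaded libraries 1 to 3 and 218, 120.4 and 236 in control libraries 1 to 3, a log2 difference of -2.71 ± 0.30 (adjusted p = 0.0214), or -2.58 without shaded library 2. The purothionins, the thionins of wheat endosperm, had differences of like size without passing the test: alpha 1 purothionin (MSTRG.9137) had 39.1, 10.6 and 30.6 against 178, 109.7 and 143 and alpha purothionin (MSTRG.5761) 90.6, 25.4 and 63.5 against 394, 203 and 269, with adjusted p of 0.0600 and 0.0815. In the list of amylase and protease inhibitors and serpins, 1 of 25 (4%, against 1.01% of all loci) was called lower and 9 (36%, against 11.7%) lay below every control library, with a median of -0.26. Alpha-amylase/trypsin inhibitor CM3 (MSTRG.38762, 4BL), a subunit of an inhibitor of insect and mammalian amylases, had 13.7, 7.83 and 11.03 in shaded libraries 1 to 3 and 108, 59.5 and 61.4 in control libraries 1 to 3, a log2 difference of -2.68 ± 0.29 (adjusted p = 0.0199) and -2.50 without shaded library 2. No member of either list lay above every control library.

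Starch synthesis enzymes were lower in some copies and not in others. Of 32 tested loci, 4 were called lower (12.5%, against 1.01% of all loci) and none higher. Of the 32, 13 lay below every control library (40.6%, against 11.7%) and 6 above (18.8%, against 11.3%), and the median was -0.24. Leaving out 1 library moved the median to -0.0528 (control library 1), -0.14 (control 2), -0.16 (control 3) and -0.37 (shaded 3), and left 0, 1, 0 and 0 loci called. It left 0 called without shaded library 2. A starch synthase on 1BL (MSTRG.3852), an enzyme that elongates glucan chains, had 2.88, 0.7003 and 1.58 in shaded libraries 1 to 3 and 28.3, 18.7 and 13.2 in control libraries 1 to 3, a log2 difference of -2.97 ± 0.36 (adjusted p = 0.0252) and -2.77 without shaded library 2. The starch synthase MSTRG.73927 (7DS) had 1.82, 0.217 and 0.456 against 12.5, 9.39 and 5.82, a log2 difference of -2.52 ± 0.36 (adjusted p = 0.0353). A locus of the same description on 7AS, MSTRG.66492, had 2.099, 0.144 and 0.608 against 11.2, 8.29 and 3.498 and did not pass the test (adjusted p = 0.0924). In all 3 loci shaded library 2 was the lowest and shaded library 1 the highest of the shaded group. Of the 7 tested loci of this description, 4 had negative differences. In the 7, 3 lay below and 2 above every control library, and the highest difference was 0.34.

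The branching and debranching enzymes were mixed. Starch branching enzyme I (MSTRG.64878, 7AL) had 4.03, 2.01 and 3.12 in shaded libraries 1 to 3 and 23.8, 9.76 and 14.7 in control libraries 1 to 3, a log2 difference of -2.02 ± 0.32 (adjusted p = 0.0442). Starch branching enzyme IIa (MSTRG.11210) had 16.03, 11.9 and 12.5 against 15.3, 14.2 and 10.95, with overlapping groups and a log2 difference of 0.00214. Isoamylase 1, which trims misplaced branches, lay below every control library in all 3 copies and was called in 1: MSTRG.66763 (7AS) had 0.427, 0.434 and 0.445 against 1.27, 1.07 and 1.54, a log2 difference of -0.67 ± 0.11 (adjusted p = 0.0479), having reached the FPKM limit in control libraries only, and the copies on 7BS and 7DS differed by -0.56 and -0.54. Both tested copies of isoamylase 3 had higher means in shaded grain, by 0.25 and 0.29. Granule-bound starch synthase 1 on 2AL (MSTRG.10613), of the enzyme family that makes amylose, had 14.4, 16.5 and 16.03 against 12.2, 12.1 and 14.2, a log2 difference of 0.27 with adjusted p = 0.334.

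ADP-glucose pyrophosphorylase (glucose-1-phosphate adenylyltransferase), which makes the glucosyl donor of starch, had no called locus. Its locus with the highest mean in control grain (MSTRG.934, 1AL) had 35.6, 21.2 and 23.4 in shaded libraries 1 to 3 and 57.7, 41.9 and 45.8 in control libraries 1 to 3, a log2 difference of -0.86 ± 0.22 (adjusted p = 0.142), with every shaded library below every control library. Summed over the 32 loci of starch synthesis, scaled FPKM was 262, 192 and 197 in shaded and 411, 314 and 331 in control grain, a ratio of the means of 1.62. No shaded sum reached the lowest control sum. Among 41 loci for starch breakdown, 13 lay below every control library (31.7%, against 11.7% of all loci) and 2 above (4.88%, against 11.3%). Their median was -0.11. Summed over the 41 loci, scaled FPKM on the scale of the 6 libraries was 800, 430 and 715 in shaded and 3094, 1434 and 3001 in control grain. The difference of these sums came almost wholly from loci that were not called, and with a median of -0.11 it does not describe most of the list. Of the 41, 1 was called lower (2.44%, against 1.01% of all loci), the disproportionating enzyme 4-alpha-glucanotransferase DPE1 (MSTRG.21877), with 1.23, 0.761 and 1.01 against 4.75, 2.73 and 4.77 and a log2 difference of -1.32 ± 0.20 (adjusted p = 0.0373). Its other 2 copies also lay below every control library.

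Sucrose synthase, which cleaves incoming sucrose into UDP-glucose and fructose, was called lower at 2 of 10 tested loci, against 1.01% of all loci. Of the 10, 6 lay below every control library, against 11.7% of all loci, and none above. Leaving out any 1 library left 0 or 1 of the 10 called. MSTRG.17070 (2BS) had 1.303, 1.64 and 2.2 in shaded libraries 1 to 3 and 8.12, 7.37 and 4.79 in control libraries 1 to 3, a log2 difference of -1.50 ± 0.20 (adjusted p = 0.0319) and -1.57 without shaded library 2. MSTRG.67273 (7AS) had 5.22, 5.61 and 5.73 against 12.4, 9.27 and 11, a log2 difference of -0.86 ± 0.13 (adjusted p = 0.0373). The loci MSTRG.42256 (4DL) and MSTRG.76365 went the other way in their means, with 22.8, 42.4 and 38.6 against 20.6, 20.01 and 27.4 and 15.04, 23.8 and 20.6 against 14.7, 14.9 and 17.7, and did not pass the test (adjusted p = 0.341 and 0.479). Both were among the most abundant loci of the enzyme, and over all 10 loci the mean control sum was 1.19 times the mean shaded sum. The sucrose transporters SUT1A and SUT1D, which load sucrose into cells, lay below every control library with log2 differences of -0.66 and -0.57, and neither was called (adjusted p = 0.0664 and 0.163). No tested locus for a SWEET sugar transporter was called.

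Central carbon metabolism gave no call in its list. None of 159 tested loci for glycolysis and organic acid metabolism was called, and the median was near 0. Of the 159, 23 lay below every control library (14.5%, against 11.7% of all loci) and 16 above (10.1%, against 11.3%), shares near those of all loci. At an unadjusted p under 0.05 there were 15 lower and 8 higher. Outside that list, the alpha subunit of pyrophosphate-dependent phosphofructokinase was chosen after its values were seen. This subunit of a reversible enzyme between fructose phosphates was called lower at 2 of 6 tested loci, against 1.01% of all loci. MSTRG.50585 (5BS) had 3.54, 1.69 and 2.85 against 18.7, 9.01 and 15.5 and MSTRG.54819 (5DS) 6.74, 2.71 and 4.91 against 28.3, 14.3 and 24.8, with log2 differences of -2.04 ± 0.29 (adjusted p = 0.03503) and -2.03 ± 0.33 (adjusted p = 0.0468). The copy on 5AS (MSTRG.46975) missed the threshold, at -1.70 ± 0.29 (adjusted p = 0.0522), while the copies on group 6 chromosomes overlapped between groups. Alcohol dehydrogenases ADH3D (MSTRG.535) and ADH2A (MSTRG.34943), which interconvert acetaldehyde and ethanol, were called lower, with differences of -2.05 ± 0.32 (adjusted p = 0.0436) and -1.79 ± 0.18 (adjusted p = 0.0196). In both, every shaded library was below every control library.

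**Figure D3:**
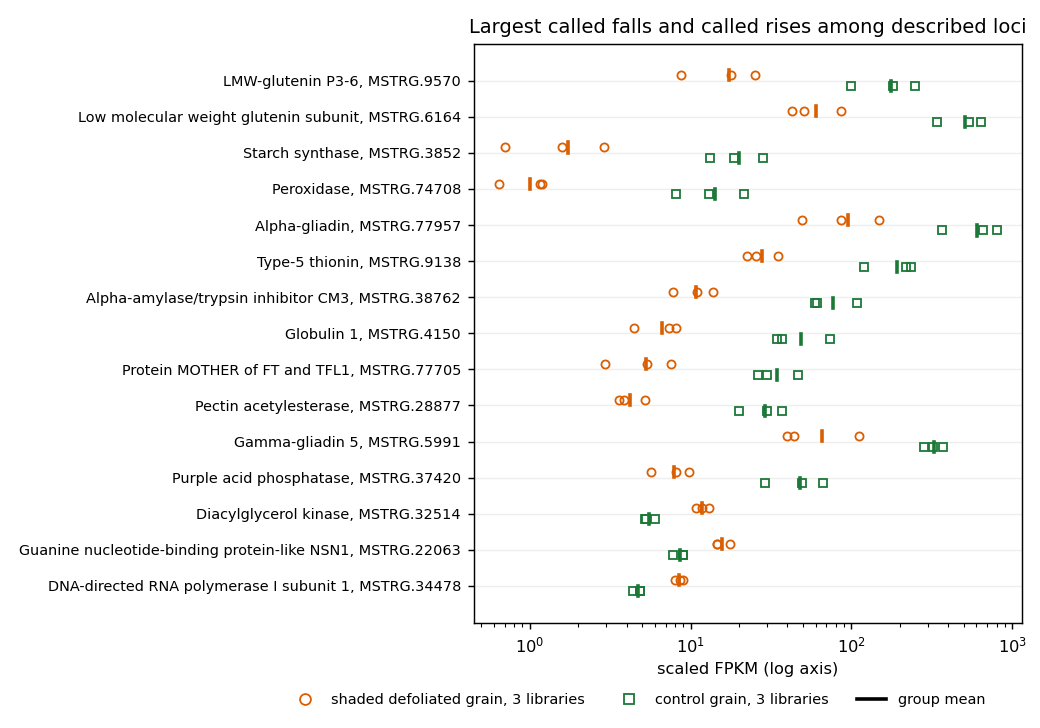
Scaled FPKM (log axis) in each of the 3 shaded (circles) and 3 control (squares) libraries for the 12 largest falls and the 3 rises called among described loci with a group mean of at least 5, with bars at the group means. The groups do not overlap at any of these loci; in the low molecular weight glutenin subunit the shaded libraries lie between 42.9 and 86.6 and the control libraries between 341 and 642.

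In the cell wall list, 1 of 66 tested loci was called lower (1.52%, against 1.01% of all loci), 12 lay below every control library (18.2%, against 11.7%), and the median was -0.12. That locus was putative pectinesterase 11 (MSTRG.29075), which removes methyl groups from pectin, with 0.2398, 0.218 and 0.542 against 4.31, 2.84 and 2.23 and a log2 difference of -1.61 ± 0.20 (adjusted p = 0.0274). Pectin acetylesterase, which removes acetyl groups from pectin, was called lower at 4 of 15 tested loci, against 1.01% of all loci. The highest of these in control grain, MSTRG.28877 (3B), had 3.88, 3.601 and 5.201 in shaded libraries 1 to 3 and 36.99, 19.9 and 29.9 in control libraries 1 to 3, a log2 difference of -2.49 ± 0.23 (adjusted p = 0.0185) and -2.45 without shaded library 2. The other 3 calls were MSTRG.32621 (3DL), MSTRG.23516 (3AL) and MSTRG.26867 (3B), at -2.48, -1.83 and -1.24, so all 4 were on group 3 chromosomes. The other 11 loci had overlapping groups, among them MSTRG.32235 on 3DL, and several of them on group 5 chromosomes were more abundant.

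Class III peroxidases, secreted haem enzymes that oxidise phenolics in the wall, were called lower at 5 of 65 loci, against 1.01% of all loci. Of the 65, 12 lay below every control library, against 11.7% of all loci, and 1 above, against 11.3%. MSTRG.74708 (7DS) had 1.16, 0.6398 and 1.19 in shaded libraries 1 to 3 and 13, 8.101 and 21.5 in control libraries 1 to 3, a log2 difference of -2.84 ± 0.31 (adjusted p = 0.0214). The 3 loci on the short arms of group 6 all fell: MSTRG.57620 (6AS) had 0.566, 0.7298 and 0.7802 against 6.302, 4.98 and 4.93, MSTRG.60677 (6BS) 0.4903, 0.449 and 0.602 against 4.87, 4.15 and 3.81 and MSTRG.63959 (6DS) 0.198, 0.439 and 0.136 against 1.95, 1.67 and 1.82. Their log2 differences were -1.92 ± 0.12 (adjusted p = 0.00723), -1.80 ± 0.11 (adjusted p = 0.00723) and -1.17 ± 0.12 (adjusted p = 0.0199), and these 3 were still called without shaded library 2, the last 2 having reached the FPKM limit in control libraries only. Purple acid phosphatase, which releases phosphate from organic esters, was called lower at 1 of 15 loci, against 1.01% of all loci. That locus, MSTRG.37420 (4AS), had 5.71, 8.14 and 9.84 in shaded libraries 1 to 3 and 49.2, 28.9 and 66.2 in control libraries 1 to 3, a log2 difference of -2.42 ± 0.32 (adjusted p = 0.0297).

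Some loci named after regulators of germination or seed maturation were among the falls, while other loci of the same names were not called. MOTHER of FT and TFL1 is a phosphatidylethanolamine-binding protein, and a wheat gene of that name represses germination. Whether the called locus does so is not known from these data. That locus, MSTRG.77705, had 7.53, 2.93 and 5.34 in shaded libraries 1 to 3 and 29.97, 26.3 and 46.7 in control libraries 1 to 3, a log2 difference of -2.52 ± 0.32 (adjusted p = 0.0282). The other tested locus of that name, MSTRG.25353 (3AS), had 15.5, 19.99 and 11.3 against 9.67, 14.5 and 25.6 with overlapping groups. The bZIP transcription factor 53 locus MSTRG.3012 (1AS), whose Arabidopsis namesake activates seed maturation genes, had 2.64, 1.99 and 2.62 in shaded libraries 1 to 3 and 8.09, 8.77 and 10.9 in control libraries 1 to 3, a log2 difference of -1.58 ± 0.14 (adjusted p = 0.0175) and -1.55 without shaded library 2. Its second locus, MSTRG.50863, was listed at 0 in control library 3 and is uncertain. The MADS-box factor TaAGL18 (MSTRG.63604) was called at -0.88 ± 0.15 (adjusted p = 0.0497). Of 38 tested loci in the transcription factor list, 2 were called lower (5.26%, against 1.01% of all loci) and none higher (against 0.0970%). Of the 38, 10 lay below every control library (26.3%, against 11.7% of all loci) and none above (against 11.3%).

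Chosen after its values were seen, GA3ox-B3 (MSTRG.16793, 2BL), an enzyme of the last step to active gibberellins, had 1.01, 0.636 and 0.9197 in shaded libraries 1 to 3 and 10.3, 6.57 and 5.07 in control libraries 1 to 3, a log2 difference of -2.12 ± 0.23 (adjusted p = 0.0199). Caleosin MSTRG.19971 (2DL), a protein of oil bodies, had 30.5, 36.4 and 38.8 against 84.4, 76.3 and 126, a log2 difference of -1.38 ± 0.22 (adjusted p = 0.0436), and all 9 tested caleosins had negative differences. The list of embryo, aleurone and oil body genes as a whole had smaller differences, with 2 of 24 called lower (8.33%, against 1.01% of all loci). Its median was -0.23, or -0.34 without shaded library 2, -0.38 without control library 1, -0.14 without control library 2 and -0.16 without shaded library 3. A heat shock protein 90-1 locus (MSTRG.20991) had 0.798, 1.03 and 0.518 against 4.79, 10.2 and 5.04, a log2 difference of -2.05 ± 0.26 (adjusted p = 0.0291). It was the only call among 54 tested heat shock proteins and chaperones (1.85%, against 1.01% of all loci), a share near that of all loci.

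**Figure D4:**
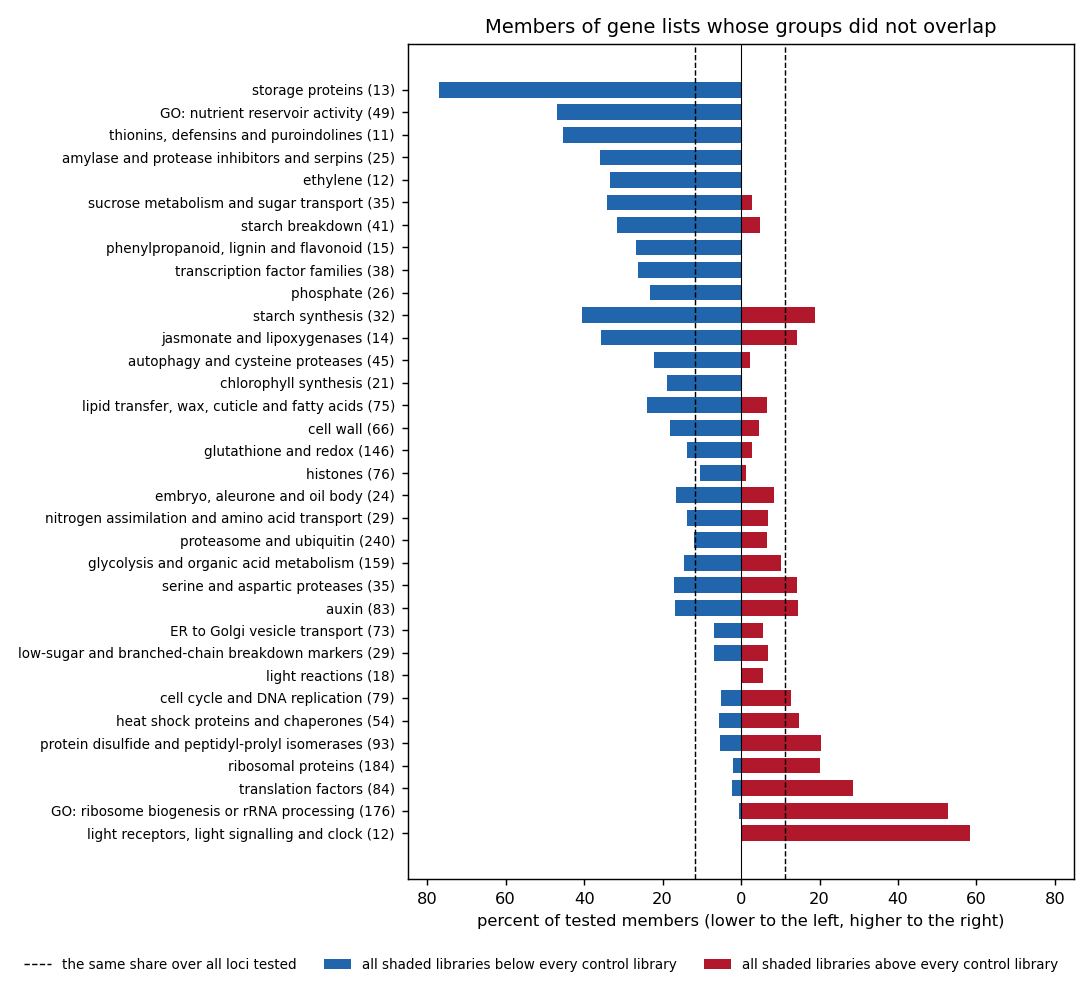
Percent of tested members with all shaded libraries below (blue, to the left) or above (red, to the right) every control library, for the gene lists with at least 10 tested members and the GO sets of nutrient reservoir activity and of ribosome biogenesis or rRNA processing (number tested in parentheses). Dashed lines mark the same shares over all loci, 11.7% below and 11.3% above; storage proteins lie farthest to the left and light receptors and ribosome biogenesis farthest to the right.

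Rises were fewer and smaller. A diacylglycerol kinase (MSTRG.32514, 3DL), which makes phosphatidic acid, had 10.7, 12.97 and 11.8 in shaded libraries 1 to 3 and 6.05, 5.303 and 5.22 in control libraries 1 to 3, a log2 difference of 0.97 ± 0.12 (adjusted p = 0.0252) and 0.94 without shaded library 2. It was 1 of 16 tested loci of that description, of which another (MSTRG.15669) was called lower at -0.93 ± 0.14 (adjusted p = 0.0412). Protein DETOXIFICATION MSTRG.30487, an efflux carrier of small molecules, was called higher at 0.63 ± 0.10 (adjusted p = 0.0447). Of 26 tested loci of that description, 1 was called higher and 3 lower, against 0.0970% and 1.01% of all loci. Of the 26, 8 lay above every control library and 6 below, against 11.3% and 11.7% of all loci. The 2 further called rises with a description belong to the making of ribosomes. The nucleostemin-like GTPase NSN1 (MSTRG.22063, 2DS), a nucleolar protein, had 17.7, 14.7 and 14.7 in shaded libraries 1 to 3 and 8.95, 9.01 and 7.75 in control libraries 1 to 3, a log2 difference of 0.80 ± 0.13 (adjusted p = 0.0436). Subunit 1 of RNA polymerase I (MSTRG.34478, 4AL), the enzyme that transcribes the precursor of the large ribosomal RNAs, had 8.55, 8.004 and 8.96 in shaded libraries 1 to 3 and 4.86, 4.85 and 4.41 in control libraries 1 to 3, a log2 difference of 0.74 ± 0.10 (adjusted p = 0.0329). At each of the 4 loci the lowest shaded library was above the highest control library.

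The copies of these 2 proteins went the same way without being called. NSN1 on 2AS (MSTRG.13164) had 27.7, 24.7 and 21.8 against 12.7, 14.7 and 14.6 and on 2BS (MSTRG.17541) 16.8, 14.8 and 15.5 against 10.9, 10.3 and 9.56, with adjusted p of 0.0549 and 0.0736. For RNA polymerase I, all 6 tested loci for subunits 1 and 2 lay above every control library, with log2 differences from 0.34 to 0.74. Loci annotated with ribosome biogenesis or rRNA processing, a GO set chosen after values had been seen, had small differences in the same direction. Of 176, 93 lay above every control library (52.8%, against 11.3% of all loci) and 1 below (0.568%, against 11.7%). In this set 1 of 176 loci was called higher and none lower, against 0.0970% and 1.01% of all loci. The median log2 difference was 0.29, or 0.30 without shaded library 2.

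Within that set, the pescadillo homologue on 4AL (MSTRG.36259), a factor of large-subunit assembly, had 68.98, 77.3 and 58.9 in shaded libraries 1 to 3 and 40.3, 41.1 and 40.6 in control libraries 1 to 3, a log2 difference of 0.73 ± 0.15 (adjusted p = 0.0844). A putative rRNA methyltransferase had 3 copies above every control library, the one on 1DL (MSTRG.7310) with 10.6, 7.89 and 8.82 against 5.202, 5.03 and 4.64 and a log2 difference of 0.76 ± 0.13 (adjusted p = 0.0524). Ribosomal proteins themselves had smaller differences. None of 184 tested was called (17 higher and 1 lower at an unadjusted p under 0.05). Of the 184, 37 lay above every control library (20.1%, against 11.3% of all loci) and 4 below (2.17%, against 11.7%). The median was 0.20, or 0.0947 without control library 1 and 0.13 without shaded library 1. Of 84 translation factors none was called (16 higher and 1 lower at an unadjusted p under 0.05). Of the 84, 24 lay above every control library (28.6%, against 11.3% of all loci) and 2 below (2.38%, against 11.7%). The sign of these medians depends on the scaling between libraries: with the deposited FPKM left unscaled, the median over all loci moved by -0.34, and the set of ribosome biogenesis then had a median of -0.15 and ribosomal proteins of -0.35. Relative to that shift ribosome biogenesis was still higher, by 0.20, and ribosomal proteins were not (-0.0073).

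Loci for light receptors, light signalling and the clock had a raised median without a call. Of 12 tested, none was called (5 higher at an unadjusted p under 0.05). Of the 12, 7 (58.3%, against 11.3% of all loci) lay above and none below every control library, and the median was 0.15. The sign of this median also depends on the scaling: with the FPKM left unscaled it was -0.20, where the median over all loci was -0.34. Phytochrome A on 4AL (MSTRG.35870), a receptor of far-red light that accumulates in the dark, had 8.75, 12.01 and 8.504 in shaded libraries 1 to 3 and 5.84, 5.202 and 5.13 in control libraries 1 to 3, a log2 difference of 0.74 ± 0.15 (adjusted p = 0.0821). Its copy on 4DS (MSTRG.43427) had 5.08, 5.48 and 5.16 against 3.38, 3.81 and 3.71, a log2 difference of 0.43 ± 0.10 (adjusted p = 0.109). The 3 tested cryptochrome-2 loci, receptors of blue light, differed by 0.39, 0.46 and 0.52. The deposited descriptions held 1 tested HY5-like factor (MSTRG.25385), with overlapping groups.

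Several described loci had large differences without passing the test, and their values are listed as such. Oleosin MSTRG.47574 (5BL), a protein that coats oil bodies, had 110.2, 112 and 79.4 in shaded libraries 1 to 3 and 78.9, 7.62 and 0 in control libraries 1 to 3, so its control libraries ranged from the shaded level to 0 and its adjusted p was 0.281. Wheatwin-1 (MSTRG.22955), a pathogenesis-related protein, had 279.7, 272 and 147 in shaded libraries 1 to 3 and 6.86, 7.14 and 130.2 in control libraries 1 to 3, with adjusted p = 0.185. Both rested on uneven values within a group. Other loci above every control library were a protein kinase (MSTRG.13251), prefoldin subunit 4 (MSTRG.44048), a WAT1-related protein (MSTRG.72128), a hexosyltransferase (MSTRG.36652), an elongation factor 1-alpha (MSTRG.41127), a subunit of the nascent polypeptide-associated complex (MSTRG.35631) and alpha-galactosidase 3 (MSTRG.76436), with log2 differences from 0.76 to 1.39 and adjusted p from 0.133 to 0.394.

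Of the 366 called loci, 302 had no description. The farthest fall was MSTRG.77936, annotated with nutrient reservoir activity, with 14.8, 0 and 8.88 in shaded libraries 1 to 3 and 380.4, 198 and 315 in control libraries 1 to 3, a log2 difference of -5.74 ± 0.95 (adjusted p = 0.0491). The farthest rise was MSTRG.9531 (1DS), annotated with defense response, with 45.6, 12.1 and 9.56 in shaded libraries 1 to 3 and 0.0562, 0.729 and 0.603 in control libraries 1 to 3, a log2 difference of 3.70 ± 0.54 (adjusted p = 0.0368). In that locus shaded library 1 was well above the other 2 shaded libraries, and all 3 were above every control library. The calls were spread evenly over the genomes, with 117 of 10419 tested loci on A (1.12%), 109 of 10620 on B (1.03%) and 116 of 10512 on D (1.10%) chromosomes.

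The grain after partial removal of the spike offered a second comparison of the shaded grain. With all 9 grain libraries in one fit, 114 of 36610 loci (0.311%) differed between shaded grain and grain after partial removal (limma, adjusted p under 0.05), 88 lower and 26 higher in shaded grain. Both comparisons use the same shaded libraries, so they are not independent of each other. The count of 114 became 25 without shaded library 3, 48 without shaded library 2 and 47, 35 and 39 without partial-removal libraries 1, 2 and 3.

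For CM3, the partial-removal libraries had 53.2, 45.7 and 71.2 on the scale of the 9 libraries, and shaded grain differed from them by -2.11 ± 0.28 in log2 (adjusted p = 0.0252). For bZIP transcription factor 53 (MSTRG.3012) they had 6.14, 7.96 and 8.597, a difference of -1.18 ± 0.16 (adjusted p = 0.0228). Sucrose synthase MSTRG.17070 had 9.01, 11.6 and 8.405 after partial removal, and shaded grain differed by -1.85 ± 0.20 (adjusted p = 0.0127). The diacylglycerol kinase MSTRG.32514 had 6.996, 5.04 and 5.83, and shaded grain differed by 1.07 ± 0.13 (adjusted p = 0.0152). These 4 loci were chosen because they were called in both comparisons. Other called falls lay nearer to partial removal: for type-5 thionin (MSTRG.9138) shaded grain differed from partial removal by -0.56, and partial removal from control by -2.16.

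Among the storage proteins, no member of the list was called between shaded grain and partial removal, and the median difference was -0.77. The summed gliadins and glutenins were 2003, 2063 and 2451 after partial removal, above all 3 shaded sums and below all 3 control sums. For the low molecular weight glutenin MSTRG.6164 the partial-removal libraries had 210.0, 172 and 250.4, and the difference of shaded grain from them was -1.66 ± 0.32 (adjusted p = 0.08397). MSTRG.5991, MSTRG.61551 and MSTRG.4150 differed by -1.04, -1.51 and -1.23. The other loci of the list called against control went the other way. LMW-glutenin P3-6 (MSTRG.9570) had 0, 0 and 87.1 after partial removal, a difference of 2.11. The alpha-gliadin MSTRG.77957 had 225.6, 0 and 297, a difference of 1.28. Both rest on libraries listed at 0 and are uncertain. The summed starch synthesis loci were 213, 235 and 228, within the range of the shaded sums. For the set of ribosome biogenesis the sums were 2891, 2653 and 3113, all below the lowest shaded sum of 3257, while the control sums were 2588, 2712 and 2818.

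**Figure D5:**
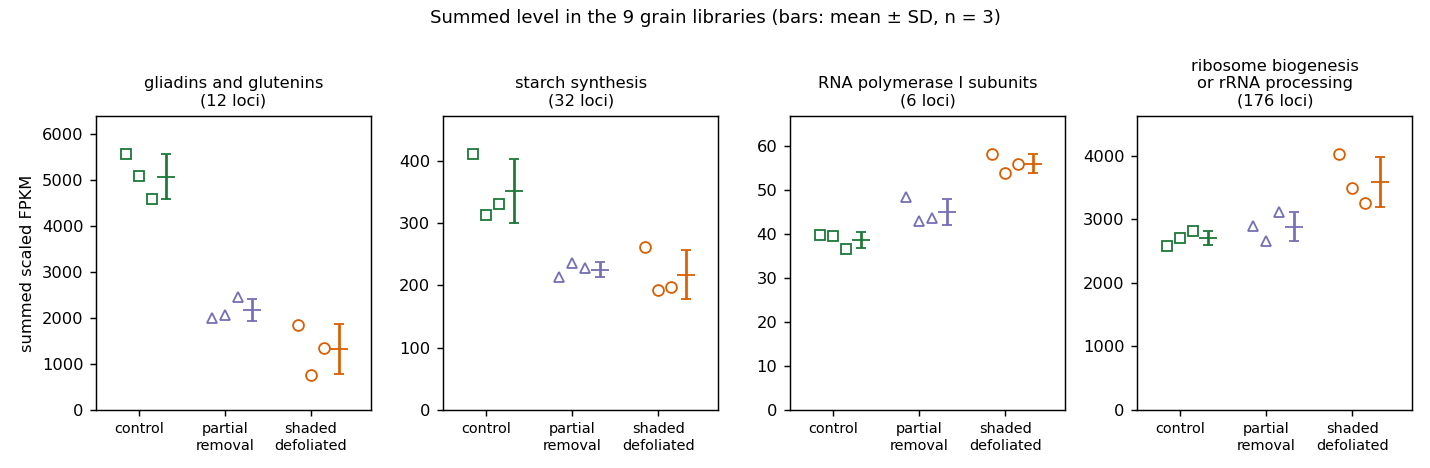
Summed scaled FPKM of 4 sets of loci in the 9 grain libraries, by group (points, with mean ± SD, n = 3); no test was made on these sums. Gliadins and glutenins are highest in control grain, between 4593 and 5564, and lowest in shaded grain, between 753 and 1839, while RNA polymerase I subunits are highest in shaded grain, between 53.8 and 58.1, against 36.5 to 39.7 in control grain.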

How the data were processed

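Grain RNA-seq libraries (3 shaded and defoliated, 3 control, 3 partial removal) were taken from 1 deposited table. The authors deposited FPKM per locus, made with HISAT, StringTie and edgeR per the submitters' processing notes; their versions and roles and the genome build are not given in the sources used here. Per the labels' protocols, poly(A) RNA was sequenced from both ends with a kit that marks no strand, so overlapping antisense genes cannot be told apart. Locus numbers, chromosome arms and descriptions are those of the deposited table. Because FPKM are no counts, no count test was used, and no interval for counting error can be given; relative depth over the 6 libraries, from the steps of values under 0.1, was 1 to 1.12 of control library 1. The loci without a gene name stayed out of scaling and test.

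Libraries were scaled by the median, over 32293 tested loci above 0 in all 6, of the ratio to the geometric mean, and log2(scaled FPKM + 1) was fitted with limma 3.58.1 in R 4.3.3 (1 mean per group, mean-variance trend, two-sided), with Benjamini-Hochberg adjustment over all loci tested and calls at an adjusted p under 0.05. Log2 differences are shaded minus control, with their standard error; on this scale the change of low loci is understated. The comparison with partial removal used the same model over 9 libraries. The steps were tested on simulated data. Figures used Python 3.11.15 and matplotlib 3.10.9. Same-numbered shaded and control libraries did not deviate together, so libraries were not paired.

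The loci named are, among called loci with an informative description, no overlap between groups and a higher mean of at least 5, the 12 largest falls and the 12 largest rises, once per description. With fewer than 12 called in a direction, places were filled by the largest differences without overlap, as values. For each list with at least 5 tested members, the called member with the largest difference in each direction and a higher mean of at least 2 was added, or without a call the member with the highest mean, and copies of equal description. All other loci were named after their values were seen. The 40 lists are patterns on descriptions. Members and lists were chosen with earlier results of these data known, and the sets by GO terms (nutrient reservoir activity, ribosome biogenesis or rRNA processing) after values had been seen. Alternatives were other scalings, no scaling, a pseudocount of 0.1, no filter, a stricter filter, all loci, all 9 grain libraries, library weights, a replicate block, each library left out, lists matched on GO and KEGG names and, after seeing the data, the limit on scaled FPKM and 9 libraries without shaded library 2.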

Additional observations from a re-analysis of the deposited data

Results flagged for a closer look

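Shaded library 2 lay far from the other grain libraries in the share of its FPKM sum on loci without a gene name, 89.9%. In the other 8 grain libraries that share was 24.4% to 55.4%, the highest being control library 1. In shaded library 2 the 10 highest unnamed loci took 29.0% of the FPKM sum, against 3.92% to 12.9% in the other libraries of the comparison. The count of calls, the storage proteins and the loci with values so marked are given above without it as well; for the other loci only the 6-library values are shown.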

How the results depend on the processing

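Against 366 calls (32 higher, 334 lower, 36 of them list members), the FPKM left unscaled gave 59 (5, 54 and 6), quantile normalization 242 (216 lower), a pseudocount of 0.1 142 (5, 137 and 20), no filter 5 over 89464 loci (0, 5 and 2), the stricter filter 149 (21, 128 and 19) over 8890 loci, all loci with or without a name 210 (6, 204 and 22) and all 9 grain libraries 861 (186, 675 and 75). With 9 libraries except shaded library 2, chosen after seeing the data, 353 loci were called, 50 of them higher. Leaving out 1 library gave 17 to 199 calls, 0 to 10 higher, 16 to 189 lower and 3 to 22 list members. Against partial removal, 114 calls became 383 unscaled, 32 without filter and 25 to 109 without 1 library. Upper quartile scaling, library weights, the limit on scaled FPKM and lists by GO and KEGG names stayed within 1.5 times of the count, and the cause of the other differences was not tested. No called locus with a description changed direction where it could be fitted (of the 64, 33 under the stricter filter, 61 with the limit on scaled FPKM and 48 without each control library). For the fits without 1 library this was nearly fixed in advance, because the groups of these loci did not overlap. Of the 64, 6 kept their call unscaled, 44 with quantile normalization, 61 with upper quartile scaling, 29 with a pseudocount of 0.1 and 2 without filter.

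The library number as a replicate block gave 174 calls (3 higher, 171 lower, 22 list members). The correlation of the deviations of same-numbered libraries was -0.140, -0.0195 and -0.109, so the numbers do not pair the libraries. Copies of multigene families, 3 libraries per group and the unknown depth limit single loci; loci with exact zeros in 1 group are uncertain.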

Other observations

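Further called falls lay in lists with 1 to 3 calls, all at low levels. Histone H2A, chalcone synthase, the galactosyltransferase, the dirigent protein and photo-lyase named here reached the FPKM limit in control libraries only, so they had to differ to be tested. Of 35 serine and aspartic proteases tested, 3 were called lower (8.57%, against 1.01% of all loci), all carboxypeptidases, which trim proteins from the carboxyl end. The highest, MSTRG.6760 (1BS), had scaled FPKM of 2.11, 1.76 and 2.67 in shaded libraries 1 to 3 and 9.16, 6.595 and 7.72 in control libraries 1 to 3, a log2 difference of -1.47 ± 0.16 (adjusted p = 0.0199) by limma. Of 76 histones, 1 was called lower (1.32%, against 1.01% of all loci) and 8 lay below every control library (10.5%, against 11.7%), shares near those of all loci. It was a histone H2A (MSTRG.2489) with 0.493, 0.418 and 0.396 against 2.99, 4.47 and 1.95 and a log2 difference of -1.48 ± 0.21 (adjusted p = 0.0364). Chalcone synthase MSTRG.77302, the entry enzyme of flavonoid synthesis, had 0.664, 0.637 and 0.591 against 1.83, 2.58 and 1.91, a log2 difference of -0.92 ± 0.12 (adjusted p = 0.03003), and its difference from partial removal was -1.15 ± 0.16 (adjusted p = 0.0301). A galactinol-sucrose galactosyltransferase (MSTRG.74404), an enzyme of raffinose synthesis, was called lower, with a difference of -1.08 ± 0.15 (adjusted p = 0.0322), and all 3 copies lay below every control library. In each of these loci the groups did not overlap.

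Several enzymes of wall polymers and phenolics were also called lower, chosen here after their values were seen. COBRA-like protein 6 (MSTRG.20574, 2DL), of a family of cellulose-associated wall proteins, had 0.721, 0.0742 and 0.337 in shaded libraries 1 to 3 and 3.77, 3.22 and 3.899 in control libraries 1 to 3, a log2 difference of -1.77 ± 0.18 (adjusted p = 0.0196). A xylan arabinosyl transferase (MSTRG.55930, 6AL), which decorates arabinoxylan, had 0.576, 1.45 and 2.21 against 8.77, 5.74 and 8.05, a log2 difference of -1.86 ± 0.27 (adjusted p = 0.0371). A dirigent protein (MSTRG.17301, 2BS), of a family that guides lignan coupling, had 0.0644, 0.0953 and 0.0531 against 1.65, 2.696 and 1.69, a log2 difference of -1.48 ± 0.15 (adjusted p = 0.0196), and it was near 0 in all 3 shaded libraries. Against partial removal, with 2.27, 2.52 and 2.92, its difference was -1.72 ± 0.14 (adjusted p = 0.00353). Deoxyribodipyrimidine photo-lyase (MSTRG.70211, 7BS), an enzyme that repairs ultraviolet damage of DNA with light, had 0.0368, 0.182 and 0.0615 against 1.13, 0.89 and 1.04 in control grain and 1.54, 1.72 and 1.67 after partial removal, with log2 differences of shaded grain of -0.89 ± 0.11 (adjusted p = 0.0271) from control and -1.26 ± 0.10 (adjusted p = 0.00353) from partial removal.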
